A study of Bos taurus with 12 samples.

Results

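Gene expression in the corpus luteum of Japanese-Black cows was compared between day 18 of gestation and day 15 of the estrous cycle. The 4 samples titled as gestation day 18 (P18, pregnant) and the 4 titled as cyclic day 15 (NP15, not pregnant) were taken by their titles, 8 of the 12 samples of the series. The other 4 samples came from day 15 of gestation (P15); they entered no test here and their levels are given for orientation. All 12 were Cy3-labelled total RNA of whole corpora lutea collected in vivo, on 1-colour arrays of 60-base oligonucleotide probes, with no treatment named and no age of the cows given in the sources used here. The series title names PPARD, a nuclear receptor for fatty acids, and CYP21A2, the steroid 21-hydroxylase, as genes of interest in pregnancy. The labels number the samples of each group 1 to 4 without saying that each came from another cow, so the p-values measure the spread between these samples. The NP15 arrays lay in slide row 1 of slide 1, the P15 arrays in slide row 2 of that slide and the P18 arrays in slide row 2 of slide 2. Day, pregnancy and slide therefore changed together between P18 and NP15 and cannot be told apart.

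The corpus luteum forms from the ovulated follicle and secretes the progesterone that keeps the uterus ready for an embryo. Its large and small luteal cells are fed by one of the densest capillary beds of the body and sit in a matrix laid down by fibroblasts and pericytes. In the cycle, prostaglandin F2alpha from the uterus ends its life, whereas in early gestation the trophoblast of ruminants secretes interferon tau, which restrains that prostaglandin and induces interferon-stimulated genes in the uterus and, through the blood, in the corpus luteum. The cyclic samples here came from a stage near the time when regression begins, and the gestation samples from the stage of interferon tau secretion.

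The level of a gene is given below as the log2 of the processed signal of its probe minus the 75th percentile of that array, so a level of 0 equals the 75th percentile and a difference of 1 is 2-fold. A gene was tested where its probe was well above background on all 8 arrays. Of 15208 probes, 9890 (65%) passed and stood for 9620 genes, 4904 of them with a symbol. A gene is called changed where the limma test gave an adjusted p under 0.05. The 75th percentile signal lay between 2867.5 and 4183.4 on the NP15 arrays and between 2999.7 and 3558.5 on the P18 arrays, which did not differ beyond the spread (exact permutation test, two-sided, p = 0.714, n = 4 and 4). Per array, 83.29% ± 2.59 (SD, n = 4) of the probes exceeded background clearly in NP15 and 70.4% ± 2.19 (SD, n = 4) in P18, and the net signal of the negative control probes was 36.48 ± 2.1 and 84.91 ± 7.41 intensity units. Neither of these measures overlapped between the groups (exact permutation p = 0.0286 each, the smallest that 4 against 4 arrays can give). They moved with the comparison, and their part in the results was not tested. NP15 replicate 4 stood apart from the other 3 NP15 arrays on the first principal component, with 40.9% of the variance (-57.9 against -14.0 to -13.4, and 19.3 to 31.2 in P18), and on the second, with 27.5% (-38.2 against 25.1 to 30.3). Defining luteal markers were bright on all 8 arrays. STAR, which carries cholesterol into mitochondria, CYP11A1, which cleaves its side chain, HSD3B1, which makes progesterone, and OXT, luteal oxytocin, had levels between 5.0 and 7.83. None of the 9 trophoblast genes on the array passed the filter.

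Between P18 and NP15, 2125 of 9620 genes (22.1%) were called changed, 813 higher in P18 (8.45%) and 1312 lower (13.6%). Without NP15 replicate 4 the counts were 2814, with 1226 higher and 1588 lower. The share of calls that were higher was 38.3%, and it depended on the scaling: with cyclic loess it was 49.3% (1090 higher, 1122 lower). Another choice that moved it was the filter, to 53.1% among the brighter probes (those above the median) and 58.3% with no filter. The levels of the groups did not overlap for 2792 genes (29%), of which P18 lay above NP15 for 1159 and below for 1633. Changes of at least 2-fold were called for 196 genes higher and 312 lower, and of at least 4-fold for 17 higher and 6 lower. Over all genes the median change was -0.03.

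Across 30 pathway lists with 9 lists of cell type markers, 1056 different members were measured, and the lists differed in the direction of their calls. The extracellular matrix, translation factors, apoptosis genes and luteal hormone reception held calls that were mostly or all lower, and the respiratory chain held calls that were all higher. Among the probes above the median signal, where fewer members were tested, 8 matrix genes, 3 translation factors and 2 apoptosis genes were called lower. Of all 4766 genes tested there, 338 were. The number of list members tested there is not given, nor is the count for hormone reception. These counts therefore do not show whether the lists still differed from all genes. For each list below, the shares of its measured members called are to be read beside the 8.45% higher and 13.6% lower of all genes, and a share near these says nothing about the list. The plot of calls in the pathway lists sets these shares against those of all genes tested.

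**Figure D1:**
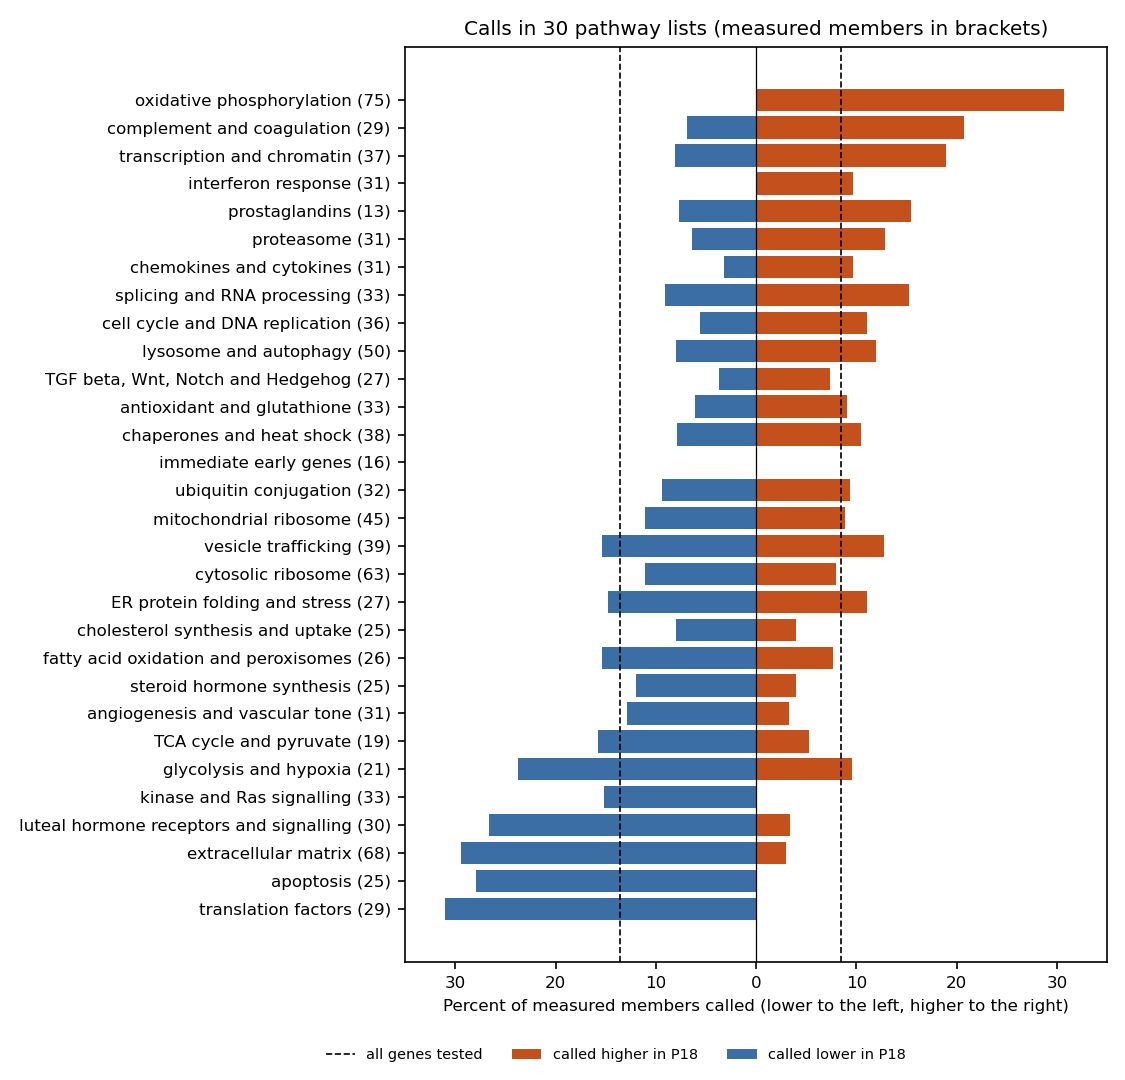
Percent of the measured members of each of 30 pathway lists that were called lower in P18 than in NP15 (blue, to the left) or higher (orange, to the right), with the number measured in brackets; dashed lines mark the shares over all 9620 genes, 13.6% lower and 8.45% higher. The respiratory chain list has 30.7% higher and 0 lower, and the translation factors have 31% lower and 0 higher.

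Most of the collagens measured were lower on day 18 of gestation. Of 10 collagen genes measured, 8 fell, 0 rose and 2 did not pass the test, with a median change of -1.27, and the 8 fell with each array left out in turn. The whole extracellular matrix list had 20 of 68 genes lower (29.4%, beside 13.6% of all genes) and 2 higher. Its median was -0.29, beside -0.03 over all genes, and 20 were lower also without NP15 replicate 4. Of the 20 lower with all 8 arrays, 7 have probes in the first or last 24 of the 192 array rows. Over all genes, 360 of the 1312 lower calls do. A collagen chain is a repeat of 3 amino acids that starts with glycine, so its coding sequence carries a glycine codon, GGN, at every ninth base. The probes of 3 of the collagens that fell lie within that repeat and are shown for that reason, with the GGN codons in capitals:

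COL4A1: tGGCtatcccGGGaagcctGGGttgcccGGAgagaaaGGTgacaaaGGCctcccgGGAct
COL2A1: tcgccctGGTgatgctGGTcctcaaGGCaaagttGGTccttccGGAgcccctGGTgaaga
COL11A1: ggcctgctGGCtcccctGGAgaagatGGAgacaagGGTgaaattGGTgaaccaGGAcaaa

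A run of at least 6 such codons, 9 bases from start to start, occurs on either strand in 6 of the 15011 different 60-base probe sequences of the array (0.04%). Collagen genes resemble each other in this repeat, so a probe there can also bind the transcript of another collagen.

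COL18A1 encodes a vessel basement membrane collagen whose end fragment is endostatin. Its levels were -1.33, -1.52, -1.43 and -1.66 on the NP15 arrays and -3.2, -3.04, -3.10 and -3.31 on the P18 arrays, with no overlap. It fell by 1.68 (SE 0.11, adjusted p = 0.000306), 3.2-fold. COL4A1, the main network collagen of basement membranes, had levels of -3.34, -3.64, -3.58 and -2.91 in NP15 and -4.56, -4.44, -4.60 and -4.60 in P18, all P18 values below all NP15 values. It fell by 1.19 (SE 0.17, adjusted p = 0.00253), and with normexp, a model-based background correction, the change was -0.725.

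The fibril-forming collagens moved the same way. COL1A1 read -0.60, -0.60, -0.90 and 0.13 in NP15 against -1.33, -2.06, -2.12 and -2.18 in P18, without overlap, and fell by 1.43 (SE 0.26, adjusted p = 0.00706; its probe lies in array row 6 of 192). COL1A2, the partner chain of type I collagen, read 1.04, 1.30, 0.70 and 0.28 against -0.08, -0.55, -0.76 and -0.69, also without overlap, and fell by 1.35 (SE 0.24, adjusted p = 0.0063). COL3A1, the collagen of fine reticular fibres, read 5.28, 5.34, 4.90 and 5.54 against 4.80, 4.28, 4.26 and 4.12, and fell by 0.90 (SE 0.19, adjusted p = 0.0117). For COL3A1 the highest P18 array came close to the lowest NP15 array.

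COL12A1, which decorates collagen fibrils, fell by 1.49 (adjusted p = 0.0145), and COL11A1, which sets fibril width, fell by 1.49 (adjusted p = 0.00331). COL2A1, best known from cartilage, fell by 1.0 (adjusted p = 0.0123), and its second probe also fell by 1.29 (adjusted p = 0.00223). The exceptions were COL4A3, a network collagen with a change of 0.30 (adjusted p = 0.499), and COL6A2, a microfibril collagen with a change of 0.09 (adjusted p = 0.846); NP15 replicate 4 was the lowest array for COL6A2, and without it the change was -0.19.

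Of 24 matrix glycoproteins 5 fell (20.8%) and 19 did not pass the test, and 3 fell without NP15 replicate 1 or P18 replicate 3. FN1, the fibronectin that links cells to collagen, read 2.59, 2.58, 2.42 and 0.95 in NP15 and 0.50, 0.00, 0.25 and 0.93 in P18. NP15 replicate 4 lay almost on the highest P18 array, and the other 3 were far above. The fall was 1.71 (SE 0.38, adjusted p = 0.0149); a second FN1 probe had a change of -1.56 that missed the threshold (adjusted p = 0.0514). LOX, which cross-links collagen and elastin, read -0.19, -0.90, -0.44 and 0.30 against -1.36, -2.18, -2.36 and -1.66, without overlap, and fell by 1.58 (adjusted p = 0.00789). A pair of bright matrix genes moved less: HSPG2, the proteoglycan perlecan, fell by 0.56 (adjusted p = 0.0175, probe in the first or last 24 array rows), and SPARC, a collagen-binding glycoprotein, fell by 0.47 (adjusted p = 0.0227; with quantile scaling the change was -0.287, adjusted p = 0.0737). The SPARC call was lost without NP15 replicate 1 or P18 replicates 1, 3 or 4 (adjusted p from 0.0509 to 0.0632).

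Among the integrins, which anchor cells to this matrix, ITGB1 fell by 0.88 (adjusted p = 0.00248) and ITGAV fell by 0.90 (adjusted p = 0.00959). ITGB5 was higher by 1.21 (adjusted p = 0.00111), but its probe lies in array row 1, the edge of the array, where the P15 arrays also read 6.58 to 6.88 against 5.09 to 5.43 in NP15. The other integrins did not pass the test. On the P15 arrays, which shared the slide of NP15, COL18A1 ranged from -1.68 to -0.88, COL4A1 from -3.75 to -3.4 and FN1 from 1.99 to 2.49, near the NP15 levels, as the plot of the collagens shows.

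**Figure D2:**
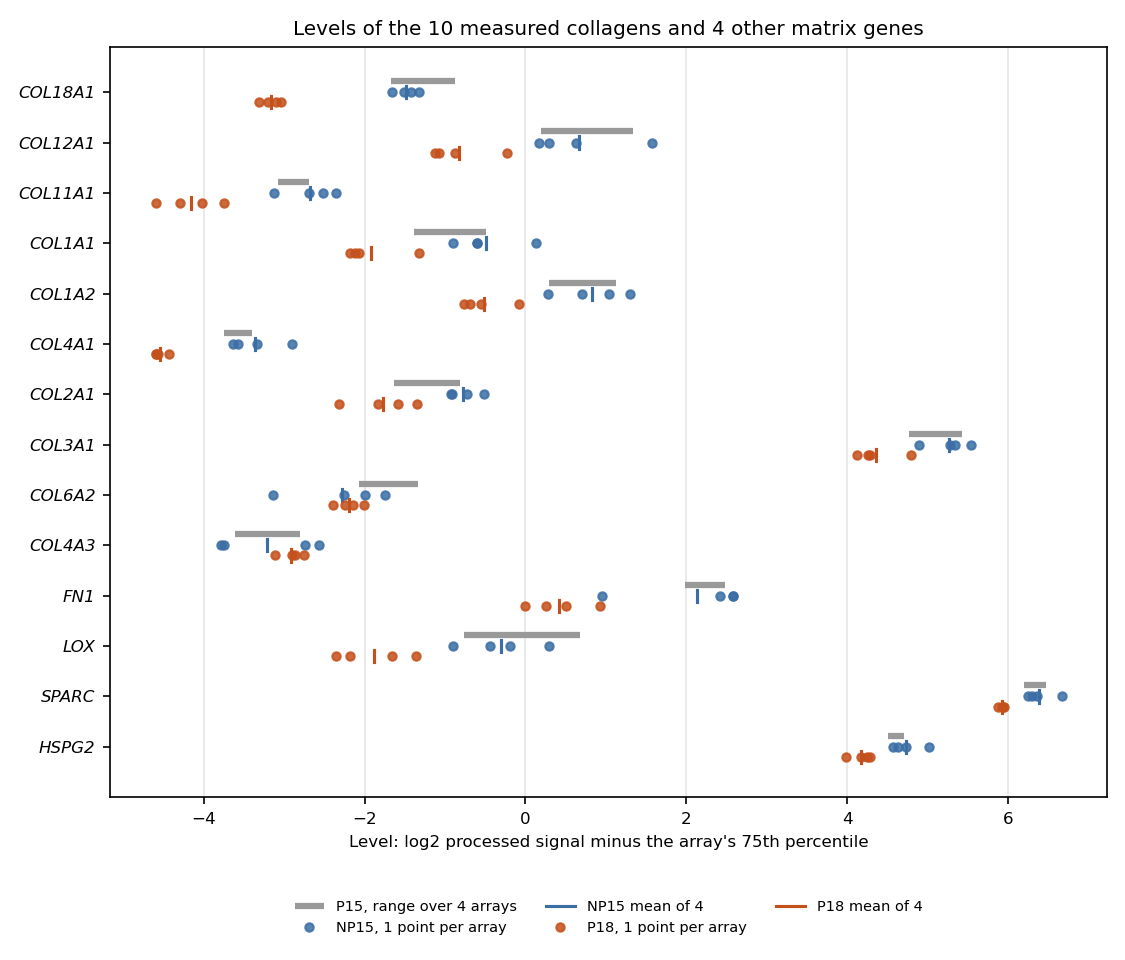
Level (log2 processed signal minus the 75th percentile of the array) of the 10 measured collagens and 4 other matrix genes, 1 point per array with a vertical line at the mean of 4, NP15 in blue and P18 in orange; grey bars span the 4 P15 arrays. For COL18A1 the P18 arrays lie from -3.31 to -3.04 and the NP15 arrays from -1.66 to -1.33, while for COL6A2 the groups overlap.

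Of 13 measured markers of fibroblasts, pericytes and smooth muscle, 4 fell (30.8%, beside 13.6% of all genes), 0 rose and 9 did not pass the test (median -0.38). Of the 4 that fell, 3 have probes in the first or last 24 array rows, and without those rows 1 marker fell. The type I and III collagen genes above make up 3 of the 4. The other was ACTA2, smooth muscle actin, which read 0.67, 0.65, 0.43 and 1.54 in NP15 and -1.30, -0.99, -0.88 and -1.04 in P18, without overlap, and fell by 1.88 (SE 0.23, adjusted p = 0.00177; array row 183). The summed signal of the 13 markers, in units of the 75th percentile signal of each array, was 116 to 131 in NP15 and 85.1 to 106 in P18. In a whole tissue, fewer cells of a type and less RNA per cell cannot be told apart.

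Of 14 measured endothelial markers 3 fell (21.4%, beside 13.6% of all genes), 0 rose and 11 did not pass the test (median -0.31), the same count with each array left out, and 0 among the brighter probes, where these 3 were not included. The 3 probes lie below the median signal. Of all genes, 20.2% were called lower in the dimmest 20% and 20.5% in the next 20%, near the share of these markers. CDH5, the cadherin of endothelial junctions, read -3.31, -3.11, -3.46 and -2.98 in NP15 and -4.18, -4.37, -4.33 and -4.50 in P18, without overlap, and fell by 1.13 (SE 0.13, adjusted p = 0.00156). PECAM1, another junction protein, fell by 1.06 (adjusted p = 0.00167), and ERG, an endothelial transcription factor, fell by 1.58 (adjusted p = 0.00322). With normexp all 3 calls held with smaller changes, -0.733 for CDH5, -0.665 for PECAM1 and -1.03 for ERG. The summed signal of the 14 markers was 38.6 to 54.4 in NP15 and 33 to 38.8 in P18.

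In the angiogenesis and vascular tone list, 4 of 31 genes fell (12.9%) and 1 rose (3.23%; 0 without NP15 replicates 1, 2 or 3 or P18 replicates 3 or 4), with a median of -0.25, so the share that fell was near the 13.6% of all genes. None of the 10 receptors measured passed the test, with changes from -0.44 to 0.13. FGF1, a growth factor for endothelium, fell by 0.71 (adjusted p = 0.014; 0.0542 with quantile scaling; a change of -0.441 with cyclic loess; array row 17), and GUCY1A1, a subunit of the nitric oxide receptor guanylate cyclase, fell by 0.96 (adjusted p = 0.0045; with normexp the change was -0.411, adjusted p = 0.0577). VEGFA, the main luteal angiogenic factor, had a change of -0.69 (adjusted p = 0.095) at its brightest probe and fell by 1.09 (adjusted p = 0.0146) at a second probe.

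HIF1A, the oxygen-regulated transcription factor that drives glycolysis and VEGFA, was among the genes that fell most. Its levels were 1.23, 0.78, 0.84 and 0.97 in NP15 and -0.75, -0.74, -0.76 and -0.86 in P18, a wide gap with little spread inside P18. The fall was 1.73 (SE 0.12, adjusted p = 0.000306), 3.32-fold. The P15 arrays read 0.60 to 1.01, within or just below the NP15 range. The probe that carries this result and the probes of GAPDH, whose readings disagree as described next, have these sequences:

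HIF1A: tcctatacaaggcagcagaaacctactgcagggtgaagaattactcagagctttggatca
GAPDH, single spot: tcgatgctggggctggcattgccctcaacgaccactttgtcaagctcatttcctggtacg
GAPDH, repeated spot: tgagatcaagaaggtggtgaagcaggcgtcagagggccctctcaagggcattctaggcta

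Of 21 glycolysis and hypoxia genes, 5 fell (23.8%) and 2 rose (9.52%); without P18 replicate 1 or without P18 replicate 3 the number that fell was 3, and without NP15 replicates 1 or 3 or P18 replicates 2 or 4 the number that rose was 1. GPI, which makes fructose 6-phosphate, fell by 0.67 (adjusted p = 0.00608). LDHA, the lactate dehydrogenase chain of hypoxic tissue, fell by 0.76 (adjusted p = 0.0223), a call lost without NP15 replicate 2 or P18 replicates 1, 2 or 3 (adjusted p from 0.0511 to 0.064). EPAS1, the endothelial relative of HIF1A, fell by 0.71 (adjusted p = 0.0315; 0.0892 with quantile scaling; -0.467 with cyclic loess, adjusted p = 0.103), a call lost without NP15 replicate 1 or P18 replicates 1, 3 or 4 (adjusted p from 0.0615 to 0.0814).

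GAPDH, often used as a reference gene, gave probe-dependent readings. Its single-spot probe in array row 1 read 4.07, 4.00, 4.14 and 4.34 in NP15 and 4.84, 4.81, 4.86 and 4.76 in P18, higher by 0.67 (SE 0.11, adjusted p = 0.0038). With a local adjustment for array position, which subtracts each array's smoothed deviation along the rows, that change was 0.298 (adjusted p = 0.0468). The probe printed at 100 spots over the array was higher by 0.77 on average, with an SD of 0.19 between spots, and by 0.79 over the 72 spots of the inner rows. The other GAPDH probe had a change of 0.03 (adjusted p = 0.908).

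Of 30 measured genes of hormone reception in the luteal cell, 8 fell (26.7%, beside 13.6% of all genes). In the same list 1 rose (3.33%, beside 8.45%), and the median was -0.24. The number that fell changed to 11 when NP15 replicate 4 was left out. It was 5 for NP15 replicate 3 or P18 replicate 4, and 4 for P18 replicate 2. Of the 8 that fell, 2 have probes in the outer array rows. Without those rows and with normexp together, where fewer genes were tested, 3 fell. Among ligands, IGF2, an insulin-like growth factor made in the corpus luteum, read 0.59, 0.13, -0.34 and 0.85 in NP15 and -0.72, -0.63, -0.90 and -1.0 in P18, without overlap, and fell by 1.13 (SE 0.25, adjusted p = 0.0139). OXT had a change of -0.63 (adjusted p = 0.0741).

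Among 13 receptors 4 fell, and 0 did without the outer array rows and with normexp together. PGRMC2, a membrane progesterone-binding protein, fell by 0.96 (adjusted p = 0.00731; probe in the outer array rows). INSR, the insulin receptor, fell by 0.72 (adjusted p = 0.0251; with normexp the change was -0.285, adjusted p = 0.182), a call lost without NP15 replicates 2 or 3 or P18 replicates 2 or 4 (adjusted p from 0.0555 to 0.0643). NR3C1, the glucocorticoid receptor, fell by 0.59 (adjusted p = 0.0376; with quantile scaling the change was -0.333, adjusted p = 0.151, and with normexp -0.369, adjusted p = 0.0754), a call lost without any of NP15 replicates 1 to 3 or P18 replicates 2 to 4 (adjusted p from 0.0621 to 0.0969), and its second probe fell by 0.86 (adjusted p = 0.00511). Behind the receptors, GNA11, a G protein of the Gq class, fell by 0.90 (adjusted p = 0.00321), and PRKACB, a catalytic chain of protein kinase A, fell by 0.78 (adjusted p = 0.0064; 0.0529 with quantile scaling; a change of -0.406 with normexp). GNAS, the G protein that couples the LH receptor to cyclic AMP, fell by 0.56 (adjusted p = 0.0177; probe in the outer array rows). For GNAS 1 P18 spot was left out as an outlier. The call was lost without P18 replicates 1 or 2 (adjusted p from 0.0511 to 0.0578).

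The receptor of the luteolytic prostaglandin was higher. PTGFR, the prostaglandin F2alpha receptor of large luteal cells, read 2.83, 2.33, 3.06 and 2.82 in NP15 and 4.55, 3.73, 4.19 and 4.00 in P18, without overlap. It rose by 1.36 (SE 0.21, adjusted p = 0.00375), 2.56-fold, while the P15 arrays read 2.48 to 3.4. PTGER1, a prostaglandin E2 receptor, rose by 0.96 (adjusted p = 0.0325; array row 12), a call lost without NP15 replicates 1, 2 or 3 or P18 replicates 1, 3 or 4 (adjusted p from 0.0506 to 0.0807). Of the 13 prostaglandin genes measured, 2 rose (1 in the fits that lost PTGER1) and 1 fell (2 without NP15 replicates 3 or 4 or P18 replicate 2). The latter was PTGES3, a prostaglandin E synthase that is also a chaperone partner, which fell by 0.65 (adjusted p = 0.0124). HPGD, which inactivates prostaglandins, had a change of -1.27 (adjusted p = 0.065; called without NP15 replicate 3, adjusted p = 0.0289, and with all 12 arrays in the fit, adjusted p = 0.0442).

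Among genes of cholesterol handling, the HDL receptor SCARB1 fell, and no synthesis gene was called. SCARB1, which takes up cholesterol from HDL, read 4.14, 4.01, 4.00 and 4.31 in NP15 and 3.07, 2.78, 3.06 and 3.0 in P18, without overlap, and fell by 1.14 (SE 0.12, adjusted p = 0.00109). PLTP, which transfers phospholipids between lipoproteins, rose by 1.34 (adjusted p = 0.0125), and ABCA1, which exports cholesterol, had a change of 1.12 (adjusted p = 0.0531; called without NP15 replicate 3 or P18 replicate 2, and with quantile or cyclic loess scaling, adjusted p 0.0296 and 0.0243). None of 12 synthesis genes passed the test.

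Of 25 steroid hormone genes, 3 fell (12%, beside 13.6% of all genes) and 1 rose (median -0.12), and without P18 replicate 1 the number that fell was 1. The 3 that fell and the 1 that rose have probes in the first or last 24 array rows, and 0 fell without those rows. Of 13 luteal steroidogenic cell markers 4 fell (30.8%, beside 13.6% of all genes) and 1 rose (median -0.41). Without P18 replicate 1, 2 fell, and without NP15 replicate 4, 6 did. Of the 4 that fell, 3 have probes in the first or last 24 array rows, and without those rows 1 fell. The summed signal of those 13 markers was 577 to 710 in NP15 and 414 to 517 in P18. The NP15 sums are lower limits, since they include the saturated probes of HSD3B1 and STAR. HSD3B1 was saturated on all 4 NP15 arrays (array row 192). With the scaling of the main comparison it was at least 1.62-fold lower in P18 (adjusted p = 0.0119). That bound holds for that scaling only, and with quantile scaling the change was -0.304 (adjusted p = 0.0667). STAR was saturated there too, and its bound with the scaling of the main comparison was 1.23-fold lower, with no call (adjusted p = 0.148). With quantile scaling the change of STAR was 0.048, so its direction is not settled. CYP11A1 had a change of -0.24 (adjusted p = 0.185). FDXR, which feeds electrons to the mitochondrial steroid enzymes, fell by 0.70 (adjusted p = 0.0203; array row 186), a call lost with the local adjustment for array position (change -0.554, adjusted p = 0.0974) and without NP15 replicates 2 or 3 or P18 replicate 1 (adjusted p from 0.0509 to 0.0547). NR5A1, the transcription factor SF-1, fell by 0.99 (adjusted p = 0.0311; 0.0903 with quantile scaling; array row 3), a call lost without P18 replicates 1, 3 or 4 (adjusted p from 0.0771 to 0.0784). SCP2, a sterol carrier, rose by 1.08 (adjusted p = 0.00238; array row 4).

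The interferon-stimulated genes ISG15, OAS1X and MX1 rose, with wide spread between the P18 samples. ISG15 is the ubiquitin-like protein that interferon tau induces, a well known readout of early gestation in the cow. ISG15 read 0.15, 0.13, 0.44 and 1.65 in NP15 and 2.33, 2.94, 5.44 and 2.48 in P18, without overlap, with P18 replicate 3 far above the rest. It rose by 2.70 (SE 0.69, adjusted p = 0.0248), 6.52-fold, a call lost without NP15 replicates 1, 2 or 3 (adjusted p from 0.0604 to 0.0668). OAS1X, an antiviral oligoadenylate synthetase, read -6.27, -4.08, -5.18 and -6.51 against -3.32, -2.78, 0.43 and -2.55. It rose by 3.45 (SE 0.86, adjusted p = 0.0227), lost without NP15 replicate 1 (0.0631).

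MX1, an antiviral GTPase, read 2.05, 1.66, 2.18 and 0.86 against 3.28, 3.37, 5.27 and 2.51, again without overlap and with P18 replicate 3 highest. It rose by 1.92 (SE 0.56, adjusted p = 0.0418; 0.0576 with quantile scaling), a call lost without any NP15 array or without P18 replicates 1 or 2 (adjusted p from 0.0615 to 0.0836). On the P15 arrays ISG15 ranged from -1.09 to 3.06 and MX1 from 0.91 to 3.53, so both reached from NP15 levels or below into the P18 range.

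In the whole interferon list 3 of 31 genes rose (9.68%, beside 8.45% of all genes) and 0 fell, and 24 had positive changes (median 0.37). These 31 are the members that passed the filter, of 36 on the array. Among interferon genes that did not pass, the mean level was lower in P18 for OASL (-5.025 against -3.942 in NP15) and IFNAR1. It was higher for OAS2, OAS1Z and IFNGR2, and none of these was tested. Leaving out NP15 replicate 1 left 0 that rose, NP15 replicates 2 or 3 left 1, and leaving out replicate 4 gave 4. DHX58, a sensor of viral RNA, had a change of 1.33 (adjusted p = 0.0757; called without P18 replicate 3, adjusted p = 0.0479, and with array weights, adjusted p = 0.043). IRF9, the DNA-binding part of the interferon response complex, had a change of 0.86 (adjusted p = 0.083, and called with array weights, adjusted p = 0.0422). USP18, which removes ISG15 from proteins, had a change of 1.29 (adjusted p = 0.204). Each of these 3 genes was highest in P18 replicate 3, and the probes of IRF9 and USP18 lie in the first or last 24 array rows.

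Complement and chemokine genes rose in a few members. Of 17 complement genes 4 rose (23.5%, beside 8.45% of all genes) and 1 fell, and 2 rose without NP15 replicate 2 or P18 replicates 2 or 3. C1QB, a chain of the recognition protein C1q made by macrophages, read 2.97, 2.06, 3.01 and 2.58 in NP15 and 3.58, 3.96, 4.05 and 5.06 in P18, without overlap, and rose by 1.51 (SE 0.34, adjusted p = 0.0151). C1QA, another C1q chain, did not pass the filter, being well above background on 4 NP15 arrays and 1 P18 array. CD46, which protects cells from complement, rose by 0.49 (adjusted p = 0.0157). Of 12 coagulation genes, FGB, a fibrinogen chain, rose by 0.85 (adjusted p = 0.00152; array row 19) and F12, a contact factor, by 0.70 (adjusted p = 0.0179), while 1 fell, and 0 without NP15 replicates 2 or 3 or P18 replicates 1, 3 or 4.

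CXCL16, a chemokine for T cells, read 0.00, -0.34, 0.12 and 0.62 in NP15 and 1.24, 1.29, 1.32 and 1.39 in P18, a tight P18 group above all NP15 arrays, and rose by 1.21 (SE 0.19, adjusted p = 0.00381). CCL21, a chemokine of lymphatic vessels, rose by 1.08 (adjusted p = 0.0147; 0.534 with all 12 arrays in the fit). Of 11 macrophage and myeloid markers 2 rose (18.2%, beside 8.45% of all genes) and 0 fell (median 0.52). The number that rose was 0 without NP15 replicates 1, 2 or 3 or P18 replicates 3 or 4, and 1 without P18 replicate 2. Their summed signal was 2.97 to 5.26 in NP15 and 3.95 to 6.5 in P18, which overlapped. S100A8, a calprotectin chain of neutrophils and monocytes, rose by 1.30 (adjusted p = 0.0237; array row 181), a call lost without NP15 replicates 1, 2 or 3 or P18 replicates 3 or 4 (adjusted p from 0.0507 to 0.0651). CD68, a macrophage marker, had a change of 0.87 (adjusted p = 0.0748). It was called with cyclic loess scaling, array weights or the replicate block (adjusted p down to 0.0396). None of 10 T and natural killer cell markers and none of 5 B and plasma cell markers passed the test; their summed signals were 1.1 to 2.65 and 0.6 to 1.15 in NP15 and 1.1 to 6.57 and 0.496 to 1.27 in P18.

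In the respiratory chain every call was a rise, by small amounts, and most genes did not pass the test. Of 75 measured genes 23 rose and 0 fell, 30.7% beside 8.45% of all genes, with a median change of 0.21. The number was 15 without P18 replicate 1 or without P18 replicate 3, 25 without NP15 replicate 4, and 12 without the outer array rows, which hold 10 of the 23. By complex, 13 of 38 genes rose in complex I (8 without P18 replicate 1 or 3), 0 of 4 in complex II, 3 of 8 in complex III, 3 of 10 in complex IV and 4 of 15 in complex V.

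In complex I, which oxidises NADH, the accessory subunit NDUFB2 read 0.55, 0.47, 0.52 and 0.64 in NP15 and 1.59, 1.38, 1.61 and 1.47 in P18, without overlap. It rose by 0.97 (SE 0.10, adjusted p = 0.00104; array row 15), and the P15 arrays read 0.51 to 0.61. NDUFC1 rose by 0.74 (adjusted p = 0.00319; array row 172), NDUFB3 by 0.63 (adjusted p = 0.0046) and NDUFB6 by 0.52 (adjusted p = 0.00547). In complex III, which passes electrons to cytochrome c, UQCRFS1, the iron-sulphur subunit, rose by 0.67 (adjusted p = 0.00268) and UQCR11 by 0.60 (adjusted p = 0.0129).

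In complex IV, which reduces oxygen, COX7A2 read 4.30, 4.34, 4.30 and 4.55 in NP15 and 5.35, 5.15, 5.26 and 4.96 in P18, without overlap. It rose by 0.81 (SE 0.12, adjusted p = 0.00327), and COX8A rose by 0.53 (adjusted p = 0.00752). In complex V, the ATP synthase, ATP5MG rose by 0.48 (adjusted p = 0.00772; array row 19). ROMO1, a small inner membrane protein outside the list, read -0.49, -0.39, -0.79 and -0.25 against 1.20, 1.22, 1.35 and 1.14, and rose by 1.71 (SE 0.13, adjusted p = 0.000413). The plot of respiratory chain genes shows that the rises spread over complexes I, III, IV and V.

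**Figure D3:**
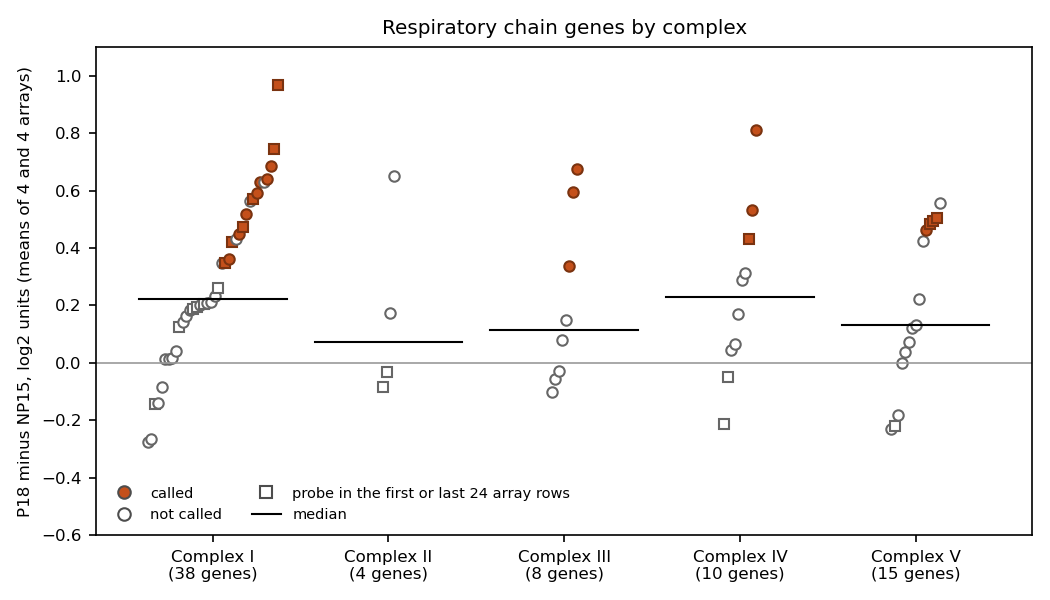
Change from NP15 to P18 (log2 units, difference of the means of 4 and 4 arrays) of each of 75 respiratory chain genes, grouped by complex; filled symbols were called, squares lie in the first or last 24 array rows, and lines mark the medians. Called genes number 13 of 38 in complex I and 0 of 4 in complex II, and the median is 0.22 in complex I and 0.07 in complex II.

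Other mitochondrial lists had calls in both directions. In the citric acid cycle, CS, citrate synthase, fell by 0.87 (adjusted p = 0.00292; array row 175), DLST, a subunit of the 2-oxoglutarate dehydrogenase, read -1.98, -2.32, -2.69 and -2.54 against -4.15, -3.91, -4.21 and -3.63 and fell by 1.60 (adjusted p = 0.00158), and IDH1, the cytosolic isocitrate dehydrogenase, fell by 0.66 (adjusted p = 0.0202; lost without NP15 replicate 3 or P18 replicate 3, adjusted p 0.0508 and 0.0543). MPC2, a subunit of the mitochondrial pyruvate carrier, rose by 0.60 (adjusted p = 0.0158). Together 3 of 19 genes fell (15.8%) and 1 rose (5.26%), near the shares of all genes.

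Of 26 fatty acid oxidation and peroxisome genes 4 fell (15.4%) and 2 rose (7.69%), near the shares of all genes, and the number that fell was 1 when NP15 replicate 1 or P18 replicates 3 or 4 were left out, and 2 when NP15 replicate 3 was. HADHB, the thiolase of the trifunctional protein, rose by 0.51 (adjusted p = 0.0162), and ECHS1, an enoyl-CoA hydratase, fell by 0.60 (adjusted p = 0.0126). FABP3, a fatty acid carrier, fell by 1.12 (adjusted p = 0.0384; array row 185), a call lost without NP15 replicate 1 or P18 replicates 1, 3 or 4 (adjusted p from 0.0669 to 0.0958). Of 45 mitochondrial ribosome genes 5 fell (11.1%) and 4 rose (8.89%), near the shares of all genes, and the number that fell was 2 without NP15 replicate 3 or P18 replicate 2 and 3 without P18 replicate 4. MRPL9 fell by 0.86 (adjusted p = 0.0012), MRPS9 fell by 0.72 (adjusted p = 0.00338) and MRPS18C rose by 0.71 (adjusted p = 0.00329).

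Of 29 translation factors 9 fell and 0 rose, 31% beside 13.6% of all genes (median -0.15). Of the 9, 4 have probes in the first or last 24 array rows, beside 360 of the 1312 lower calls over all genes. Of 22 initiation factors and regulators of translation measured, 8 fell (36.4%, 3 of them in those rows) and 0 rose. The 8 became 4 without P18 replicate 3, 5 without NP15 replicates 1, 2 or 3 or P18 replicate 4, and 8 without NP15 replicate 4. EIF4A1, the RNA helicase of the cap-binding complex, read -2.69, -2.90, -2.84 and -2.26 in NP15 and -4.31, -4.25, -4.11 and -4.41 in P18, without overlap, and fell by 1.60 (SE 0.16, adjusted p = 0.000869; array row 19).

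EIF4G2, a scaffold of cap-independent initiation, read -0.91, -0.92, -0.91 and -0.61 against -2.20, -2.32, -2.15 and -2.17, also without overlap, and fell by 1.37 (SE 0.11, adjusted p = 0.000433). EIF4A2, a second helicase of the family, fell by 0.74 (adjusted p = 0.0109; array row 17), and EIF3D, a subunit that binds the small ribosomal subunit to the complex, fell by 0.67 (adjusted p = 0.00541).

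Of 63 cytosolic ribosomal protein genes 7 fell (11.1%) and 5 rose (7.94%), near the shares of all genes (median -0.04). Without NP15 replicate 4 the counts were 12 and 9, and the number that fell was 3 without NP15 replicate 2 or P18 replicate 3 and 4 without P18 replicates 1 or 4. RPS4X fell by 0.66 (adjusted p = 0.00374), while RPS27L rose by 1.03 (adjusted p = 0.00167), RPS26 by 0.94 (adjusted p = 0.00562) and RPS3A by 0.72 (adjusted p = 0.00481). RPS12 fell by 1.07 at its brightest probe (adjusted p = 0.00657), and a second probe had a change of 0.42 (adjusted p = 0.0665); the mean of its probes had a change of -0.324 (adjusted p = 0.084). Ribosomal protein genes have many processed copies, so a probe can read more than 1 locus.

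Along the secretory route, 4 of 13 folding genes of the endoplasmic reticulum fell (30.8%, beside 13.6% of all genes), 0 rose and 9 did not pass the test, and 2 fell without NP15 replicate 1. PDIA5, a disulphide isomerase, fell by 1.43 (adjusted p = 0.00297; array row 177), and HSPA5, the chaperone BiP, read 1.90, 1.32, 1.58 and 1.88 against 0.87, 0.36, 0.63 and 0.74, without overlap, and fell by 1.02 (SE 0.17, adjusted p = 0.00467). HSP90B1, the chaperone GRP94, fell by 0.45 (adjusted p = 0.0175; lost without NP15 replicate 1, adjusted p = 0.0523).

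Of 8 genes of protein entry 3 rose (37.5%, beside 8.45% of all genes), and 6 without NP15 replicate 4. SEC62, part of the post-translational pore, read 2.60, 2.53, 2.58 and 2.68 against 3.63, 3.69, 3.83 and 3.63 and rose by 1.1 (adjusted p = 0.000553; array row 184). SRP54, of the signal recognition particle, rose by 0.97 (adjusted p = 0.00364), and DAD1, of the glycosylating complex, by 0.48 (adjusted p = 0.00962; array row 192). Of 17 vesicle coat genes 6 fell (35.3%) and 2 rose (11.8%), the latter 0 or 1 without any array except NP15 replicate 4, and the number that fell was 2 or 3 without NP15 replicate 1 or P18 replicates 1, 2 or 3. The largest fall among them was SEC31A, of the COPII coat that leaves the endoplasmic reticulum, which fell by 1.11 (adjusted p = 0.00204).

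Of 32 ubiquitin genes 3 rose and 3 fell (9.38% each), the latter 1 without NP15 replicates 1 or 3 or P18 replicates 1, 2 or 4, and both counts were 5 without NP15 replicate 4. UBA1, the main ubiquitin-activating enzyme, read -2.01, -2.15, -1.82 and -1.86 in NP15 and -3.67, -3.46, -3.69 and -3.65 in P18, without overlap, and fell by 1.66 (SE 0.11, adjusted p = 0.000306). UBB, a polyubiquitin gene, read 0.29, -0.08, 0.26 and 0.33 against 1.46, 1.52, 1.5 and 1.69 and rose by 1.34 (SE 0.12, adjusted p = 0.000739; array row 6).

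STUB1, a ligase that works with chaperones, rose by 0.59 (adjusted p = 0.0152). Of 31 proteasome genes 4 rose (12.9%) and 2 fell (6.45%). Of the 4 that rose, 3 have probes in the first or last 24 array rows, and 0 rose without those rows. With 1 array left out, 1 or 2 of the 31 rose, except that 4 did without NP15 replicate 4. The number that fell was 1 without any of NP15 replicates 1 to 3 or P18 replicates 2 to 4. PSMB2, a core subunit, rose by 0.61 (adjusted p = 0.00993; array row 169), and PSMC2, a cap ATPase, fell by 0.58 (adjusted p = 0.00632).

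Of 25 apoptosis genes measured 7 fell (28%, beside 13.6% of all genes), 0 rose and 18 did not pass the test (median -0.15), and 4 fell when NP15 replicate 1 or P18 replicates 1 or 3 were left out. Of the death-promoting genes, RIPK1, a kinase below the TNF receptor, fell by 1.31 (adjusted p = 0.00429; a change of -0.728 with normexp). Of the survival genes, BCL2L2 read -0.38, -0.27, -0.15 and -0.48 against -1.43, -1.14, -1.52 and -1.08, and fell by 0.97 (SE 0.14, adjusted p = 0.00257), and BCL2L1 fell by 0.61 (adjusted p = 0.00793; with normexp the change was -0.174, adjusted p = 0.328).

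Of 33 kinase and Ras signalling genes 5 fell (15.2%, near the 13.6% of all genes) and 0 rose, and 3 fell without NP15 replicate 1 or 3. CSK, which restrains Src kinases, read -3.84, -3.84, -3.59 and -3.06 against -5.37, -5.23, -5.28 and -4.69, without overlap, and fell by 1.56 (SE 0.22, adjusted p = 0.00257; a change of -0.917 with normexp). AKT1, a survival kinase below the insulin and IGF receptors, fell by 0.74 (adjusted p = 0.0184), and TSC1, a brake on mTOR, fell by 0.66 (adjusted p = 0.016; 0.0504 with cyclic loess).

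In the TGF beta, Wnt, Notch and Hedgehog list 2 of 27 genes rose (4 without NP15 replicate 4) and 1 fell (2 without NP15 replicate 3). CTNNB1, beta-catenin of adherens junctions and Wnt signalling, read -0.31, -0.41, -0.32 and -0.41 in NP15 and -1.37, -1.62, -1.52 and -1.26 in P18, without overlap, and fell by 1.08 (SE 0.11, adjusted p = 0.001). ID3, a target of BMP signals, rose by 1.1 (adjusted p = 0.00893; array row 11). DLK1, a Notch-like ligand, rose by 1.32 (adjusted p = 0.00112; array row 7), but the P15 arrays read -0.17 to 0.21, beside -0.34 to -0.06 in P18 and -1.78 to -1.28 in NP15.

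Of 37 transcription and chromatin genes 7 rose (18.9%) and 3 fell (8.11%). The 18 chromatin genes held 3 rises and 3 falls, and 4 of 19 genes of RNA polymerase II and the mediator rose; without NP15 replicate 4, 5 chromatin genes rose. The 3 that fell are 16.7% of the chromatin genes, near the 13.6% of all genes. HDAC1, a histone deacetylase, read 0.17, 0.15, 0.02 and 0.29 against -1.44, -1.28, -1.39 and -1.22, and fell by 1.49 (SE 0.10, adjusted p = 0.000306; array row 182). HDAC3, another deacetylase, fell by 0.84 (adjusted p = 0.00719), and EED, of the Polycomb complex, fell by 0.69 (adjusted p = 0.00813). Among the rises were GTF2H5, of the repair and transcription factor TFIIH, by 0.65 (adjusted p = 0.00551), and MED11, of the mediator, by 0.59 (adjusted p = 0.00768). H3-3A, a replacement histone, rose by 0.87 (adjusted p = 0.00338; 0.494 with the local adjustment for array position) at a probe in array row 1, and its other probe had a change of 0.52 (adjusted p = 0.0829).

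Of 33 splicing genes 5 rose (15.2%) and 3 fell (9.09%), the latter 1 without NP15 replicates 1 or 3 or P18 replicate 3 and 5 without NP15 replicate 4. LSM3 rose by 0.71 (adjusted p = 0.00347), SNRPD3 by 0.48 (adjusted p = 0.00648), both of the small nuclear particles, and HNRNPH1, an RNA-binding regulator, by 1.07 (adjusted p = 0.00535; array row 181). Of 36 cell cycle and replication genes 4 rose (11.1%) and 2 fell (5.56%; 4 without P18 replicate 4). RPA1, the large subunit of the single-strand DNA-binding complex, fell by 1.90 (adjusted p = 0.001), while its small subunit RPA3 rose by 0.72 (adjusted p = 0.00747). In the anaphase-promoting complex CDC27 fell by 0.99 (adjusted p = 0.0064; a change of -0.458 with normexp), while CDC26 rose by 0.58 (adjusted p = 0.00554) and ANAPC11 by 0.58 (adjusted p = 0.00568). RFC5, of the clamp loader, rose by 0.62 (adjusted p = 0.00962).

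Lysosome, antioxidant and chaperone lists also had calls in both directions. LAPTM4A, a lysosomal membrane protein, rose by 1.04 (adjusted p = 0.00168; array row 5) and CTSC, a protease of immune granules, by 0.81 (adjusted p = 0.00321). PSAP, the precursor of lysosomal lipid activators, fell by 1.18 (adjusted p = 0.00382), CTSK, a collagen-cleaving cathepsin, fell by 0.72 (adjusted p = 0.00478), and ATG4B, an autophagy protease, fell by 0.88 (adjusted p = 0.00369; array row 17). NQO1, a quinone reductase, fell by 0.97 (adjusted p = 0.011; array row 180; with normexp the change was -0.417, adjusted p = 0.056), and GSTA4, a glutathione transferase, rose by 0.73 (adjusted p = 0.0111).

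Among chaperones CRYAB, a small heat shock protein, rose by 1.32 (adjusted p = 0.0119; array row 22), while HSPB8, of the same family, fell by 1.27 (adjusted p = 0.00338). DNAJB4 rose by 0.81 (adjusted p = 0.00747). DNAJA2 fell by 0.99 (adjusted p = 0.00229) at its brightest probe and had a change of 0.21 (adjusted p = 0.839) at a second probe; the mean of its probes had a change of -0.389 (adjusted p = 0.391). None of 16 immediate early genes, which respond to handling and stress of tissue, passed the test.

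The largest rises with a symbol, among probes outside the outer 24 rows at either end, were led by KLC3. This kinesin light chain, known from sperm tails, read -3.95, -3.79, -4.27 and -3.63 in NP15 and -0.46, -0.56, -0.31 and -0.43 in P18, far apart and tight in P18. It rose by 3.47 (SE 0.15, adjusted p = 5.83e-05), 11.1-fold, and the P15 arrays read -4.25 to -3.88, as low as NP15. NOP10, of the particles that guide pseudouridine into RNA, read -2.11, -1.74, -1.83 and -2.99 against 0.07, 0.00, 0.37 and 0.07 and rose by 2.29 (SE 0.27, adjusted p = 0.00149).

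LMO3, a LIM-domain transcription cofactor, rose by 2.03 (adjusted p = 0.000543). AGRP, a hypothalamic neuropeptide, rose by 1.97 (adjusted p = 0.00201), BPIFA1, an airway secretory protein, by 1.97 (adjusted p = 0.00114), SERPINA3, an antiprotease of inflammation, by 1.79 (adjusted p = 0.000938), and PNCK, a kinase, by 1.76 (adjusted p = 0.00219). KRT31, a hair keratin, rose by 1.57 (adjusted p = 0.004), ZNF414, a zinc finger protein, by 1.61 (adjusted p = 0.0138) and SOST, an inhibitor of Wnt signals known from bone, by 1.59 (adjusted p = 0.018). With normexp the changes were 1.03 for AGRP, 1.13 for BPIFA1, 1.17 for SERPINA3, 1.12 for PNCK, 1.06 for ZNF414 and 1.03 for SOST, all still called. SOST also rose by less, 0.956, with looser filters. Several of these are genes of other tissues at low signal: 9 of the 15 largest rises lay in the dimmest 20% of the genes tested. PLA2G2D1, a secreted phospholipase, was called higher by 1.81 (adjusted p = 0.0219; lost without NP15 replicate 1, adjusted p = 0.0565) and lower at a second probe, with a change of -0.76 (adjusted p = 0.00309); the mean of its probes had a change of 0.527 (adjusted p = 0.148).

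Among the largest falls, WRNIP1, which protects stalled replication forks, read -2.49, -2.61, -2.39 and -1.97 in NP15 and -4.54, -4.32, -4.66 and -4.25 in P18, without overlap, and fell by 2.08 (SE 0.16, adjusted p = 0.000433). PTBP1, a splicing repressor, read -1.66, -1.58, -1.61 and -1.36 against -3.10, -3.19, -3.14 and -2.83 and fell by 1.51 (SE 0.12, adjusted p = 0.000433). DYSF, which reseals membranes, fell by 1.77 (adjusted p = 0.00222), RHOB, an endosomal GTPase, fell by 1.64 (adjusted p = 0.00329) and RCSD1, an actin-capping partner, fell by 1.5 (adjusted p = 0.00248; a change of -0.856 with normexp). Of the 15 largest falls 11 lay in the dimmest 40%. The plot of leading genes sets these levels beside those of P15.

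**Figure D4:**
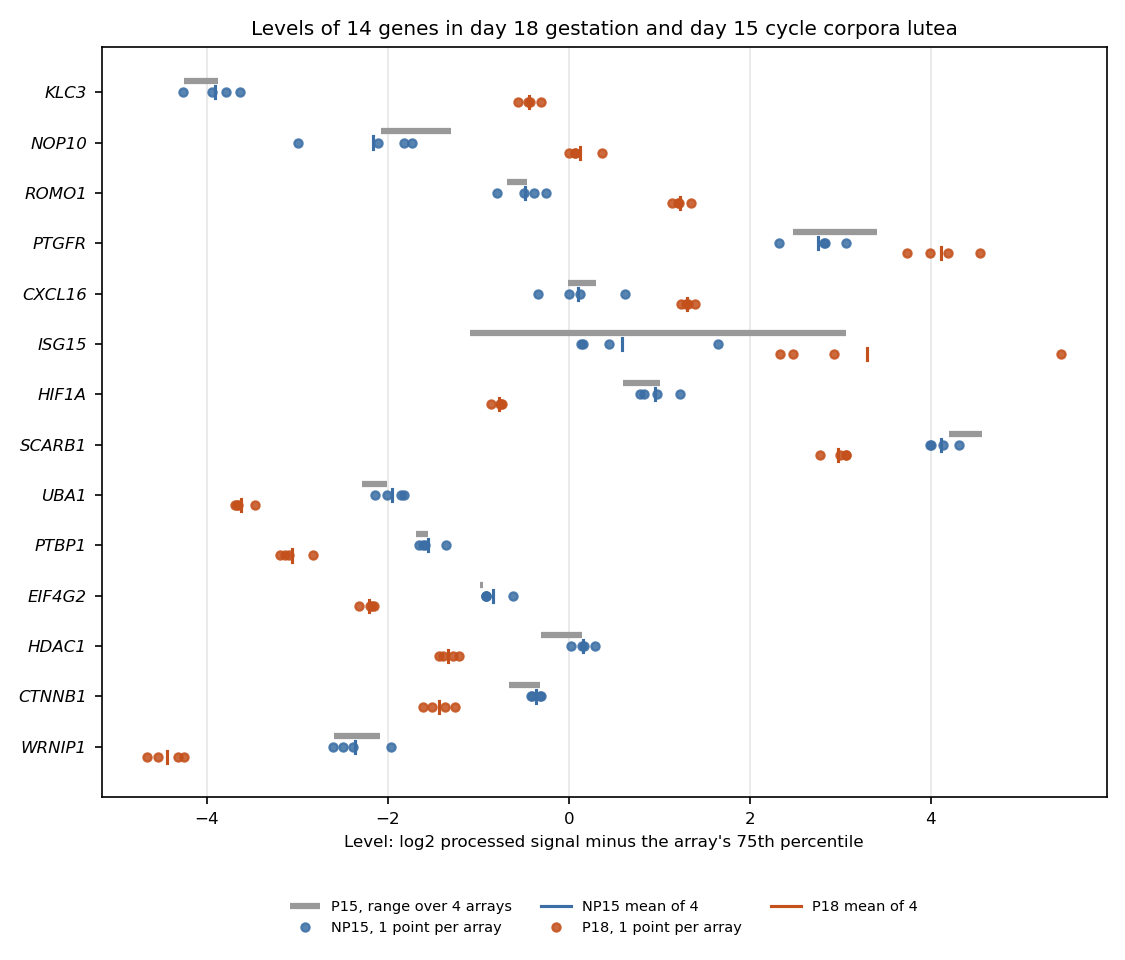
Level (log2 processed signal minus the 75th percentile of the array) of 14 genes, 1 point per array with a vertical line at the mean of 4, NP15 in blue and P18 in orange; grey bars span the 4 P15 arrays. KLC3 lies from -4.27 to -3.63 in NP15 and from -0.56 to -0.31 in P18, and ISG15 has the widest P15 range among the 14, from -1.09 to 3.06.

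The genes of the series title both have probes at the edge of the array. PPARD, in array row 1, read -7.12, -7.57, -7.71 and -6.34 in NP15 and -3.75, -2.74, -3.59 and -3.79 in P18, without overlap. It was higher by 3.71 (SE 0.34, adjusted p = 0.000742), the largest change among genes with a symbol, with normexp background correction by 1.97 and with the local adjustment for array position by 3.34 (adjusted p = 0.000718). The P15 arrays, on the slide of NP15 but in the slide row of P18, read -4.85 to -4.67, above NP15. Of the 50 genes tested in array row 1, 40% were called higher and 6% lower, beside 8.45% and 13.6% of all genes, with a median change of 0.33. MRPS28, a mitochondrial ribosomal protein in the same row, was higher by 1.65 (adjusted p = 0.00156), and P15 read 1.30 to 1.71 beside 1.19 to 1.75 in P18.

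CYP21A2, in array row 191, read -1.67, -3.0, 0.39 and -2.95 in NP15 and -5.29, -4.10, -3.32 and -3.50 in P18, without overlap but with wide spread. The change of -2.24 (SE 0.78, adjusted p = 0.0717) did not pass the test, except without NP15 replicate 4 (adjusted p = 0.044), with array weights (adjusted p = 0.0264) or with all 12 arrays in the fit (adjusted p = 0.0292). The P15 arrays read -4.13 to -3.29, in the P18 range. The plot of calls by probe properties gives the wider picture.

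**Figure D5:**
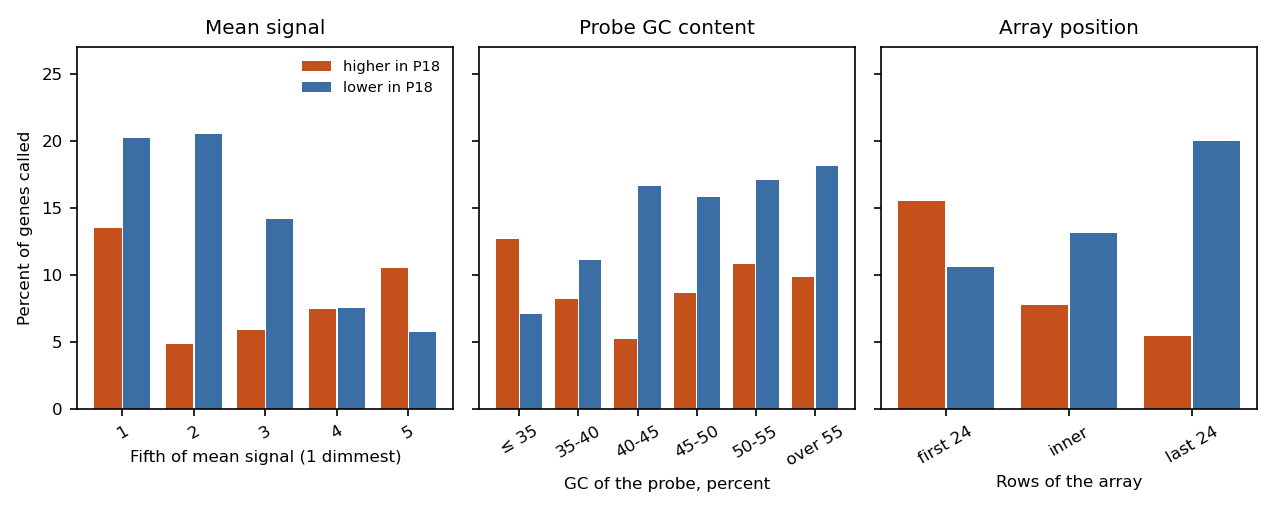
Percent of genes called higher (orange) or lower (blue) in P18, by signal class (5 equal classes, 1 dimmest), by GC percent of the probe and by array rows. Lower calls go from 20.2% in the dimmest class to 5.77% in the brightest, and higher calls from 15.5% in the first 24 rows to 5.44% in the last 24.

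Calls varied with the brightness, base composition and place of the probe. In the dimmest 20% of genes 13.5% were called higher and 20.2% lower, and in the brightest 10.5% and 5.77%. Probes of up to 35% GC had 12.7% higher and 7.09% lower calls, and probes over 55% GC 9.84% and 18.1%. Bright genes such as COX7A2, COL3A1 and SCARB1 therefore lay in a signal range where fewer calls were made than for dim ones such as COL4A1, CDH5 and EIF4A1.

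Some genes left the test because their P18 signal was not well above background. This was so for 2006 probes that were above it on all 4 NP15 arrays, 888 of them on no P18 array, while 40 probes went the other way and 2 of these were on no NP15 array. Among list members 42 genes were above background on all NP15 and no P18 array, and 0 the reverse. Their P18 level has a bound set by the dimmest probes well above background, and fold changes against it are lower bounds. PTGS2, the inducible cyclooxygenase, was at least 2.1-fold lower in P18, FGFR1, an FGF receptor, at least 1.98-fold, IFNAR1, a receptor chain for interferon tau, at least 1.84-fold, and MAPK9, the stress kinase JNK2, at least 1.72-fold. These 4 rest on the group means with no test. They come from the 42 chosen as above background on NP15 arrays alone. That choice favoured lower P18 levels, so their direction is not a separate result. The negative control signal was 84.91 in P18 and 36.48 in NP15, and its part here was not tested. PTGS2 was the only member at 2-fold or more. PTGS2 read -4.54, -5.8, -5.02 and -3.66 on the NP15 arrays, beside a mean P18 bound of -5.83. NP15 replicate 2 thus lay almost on that bound, and NP15 replicate 4 was highest. The FGFR1 probe lies in array row 15.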

How the data were processed

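Total RNA of 12 corpora lutea was read on 1-colour Agilent arrays scanned and extracted by the authors with Agilent Feature Extraction 9.5.1.1, per the file headers (9.5 in the submitters' processing notes), and the scanner files hold the deposited processed intensity, already background-corrected and given per spot. The deposited value table holds log2 values that equal the log2 processed intensity minus 1 constant per array, within 1.79e-06, by comparison with the scanner files. Its constant lies 0.00757 to 0.01421 from the 75th percentile used here, and its column medians range from -3.315 to -2.989. It served as an alternative.

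For the comparison, the log2 processed intensity minus the array's 75th percentile over probes other than the 536 controls was taken. Spots marked as outliers were set to missing (at most 9 on 1 of the 8 arrays, 11 genes tested). Spots of identical sequence were averaged and the brightest kept probe stood for a gene. limma 3.58.1 in R 4.3.3 (lmFit, eBayes, two-sided, Benjamini-Hochberg over all 9620 genes, threshold 0.05) was fitted on 4 P18 and 4 NP15 arrays with no covariate; adjusted p-values here are from that fit. It was tested on simulated data, whose outcome is not given here and from which nothing is drawn. The number of arrays limits the precision. Genes saturated or below background on every array of a group are given as bounds, computed from group means of the higher of the measured level and the dimmest probe well above background. Array measures had an exact permutation test. Symbols came from accessions, gene numbers, names or descriptions in the files, matched to a RefSeq gene table (ARS-UCD2.0): 7073 of 15208 probes got 1 and 8079 matched none. Probe sequences are those of the scanner files.

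The genes named were the 15 largest rises and falls with a symbol and no overlap outside the outer 24 rows, up to 6 members per list by p and whole lists of at most 12, and the genes of the series title. HSPG2, SPARC and ATP5MG fall outside that rule and were chosen after their values were seen, as were the genes of the bounds and the second probes. Some items that the rule names are not reported here. Members, lists and named genes were chosen with earlier results of these data known. The alternatives were quantile, median and cyclic loess scaling, normexp with an offset of 50, other filters, all 12 arrays, the probe mean, array position, array weights, marked spots kept, the replicate block and each array left out.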

Additional observations from a re-analysis of the deposited data

Results flagged for a closer look

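Of 317 groups of 4 arrays tested (the P18 and NP15 values of the 159 genes named), 22 had 1 array far from the other 3 by Dixon's criterion, where chance alone marks about 1 group in 20. Of these, 5 were NP15 replicate 4: RPA1 at -2.14 (others -2.79 to -2.69), FN1 at 0.95 (2.42 to 2.59), GNAS at 6.28 (5.97 to 5.99), COX7A2 at 4.55 (4.30 to 4.34) and EIF4G2 at -0.61 (-0.92 to -0.91).

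In the other NP15 arrays, replicate 1 stood out for PTGES3 at 0.68, MRPS9 at -1.61 and CTSC at 1.31. NP15 replicate 2 stood out for NDUFB6 at 3.14 and replicate 3 for RPS26 at 2.06.

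In P18, replicate 3 stood out for USP18 at 1.59 (others -1.44 to -1.30), AKT1 at -2.10 and LSM3 at 0.94. Replicate 1 stood out for COL1A1 at -1.33 (others -2.18 to -2.06), PSMC2 at -1.29 and CTSK at 0.96. Replicate 2 stood out for UBA1 at -3.46, CD46 at -0.90 and CRYAB at 0.54 (others -0.71 to -0.59). Replicate 4 stood out for HIF1A at -0.86 (others -0.76 to -0.74), OXT at 5.0 (others 5.72 to 5.85) and EIF4A2 at -0.79.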

How the results depend on the processing

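Of the 159 genes named, 146 were called, and 129 of those calls held with each of the 8 arrays left out in turn. The count of calls ranged from 1494 to 2814 over these 8 fits, from 554 to 1226 for genes higher and from 940 to 1588 for genes lower. With no filter 4815 genes were called (2806 higher, 2009 lower), and among the probes above the median signal 721 (383 and 338). Genes higher numbered 536 without the outer 24 rows and 1344 with array weights. Without the outer rows and with normexp together, an alternative chosen after seeing the data, 1342 genes were called (641 higher, 701 lower). The causes were not tested, except that fewer genes are tested without dim probes or outer rows.

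The change of STAR, not called, turned to 0.048 with quantile scaling, and that of COL6A2, not called, to -0.13 with array weights and ranged from -0.194 to 0.268 with 1 array left out. With the replicate block 1576 genes were called, 601 higher and 975 lower, but the numbers do not pair the samples: correlations of same-numbered deviations were 0.215, -0.024, 0.058 and -0.081, and 1 of 4 NP15 and 2 of 4 P18 samples correlated best with their own number. Among the genes named, the block ended 13 calls and added 2. Quantile scaling ended the calls of MX1, SPARC, EPAS1, FGF1, HSD3B1, NR5A1, INSR, NR3C1, PRKACB and BCL2L1 (adjusted p from 0.0529 to 0.151), and cyclic loess those of MX1, EPAS1, NR5A1, NR3C1 and TSC1 (0.0504 to 0.119). Normexp ended those of GUCY1A1, INSR, NR3C1, BCL2L1 and NQO1 (0.056 to 0.328), the local position adjustment those of FDXR and NR3C1 (0.0974 and 0.0859), and fitting all 12 arrays those of MX1 and CCL21 (0.0523 and 0.534). The deposited value table, spots marked as outliers kept, and the filter of 3 of 4 arrays changed the call of none of the 159.

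Dim and saturated probes limit what can be measured, and the smallest exact p for 4 against 4 arrays is 0.0286.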
